A study of Mus musculus with 12 samples.

Results

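The 8 genes described here were the fibroblast growth factor (FGF) ligands *Fgf2*, *Fgf7*, *Fgf10* and *Fgf18* and the FGF receptors *Fgfr1*, *Fgfr2*, *Fgfr3* and *Fgfr4*, taken by gene name from the 40760 genes counted in bulk RNA-seq of CD140a+ cells sorted from mouse lung. CD140a is the protein of *Pdgfra*, a receptor carried by lung fibroblasts. The 12 libraries formed 4 groups of 3, a vehicle and a bleo group of each genotype (*WT* and *Pear1*-/-), from male mice on a C57BL/6 background, aged 8 to 12 weeks unless stated otherwise. Bleo is bleomycin, a drug that injures the alveolar epithelium and leads to pulmonary fibrosis, given as an aerosol into the trachea, and the dose and day behind these libraries are not stated in the sources used here. *Pear1*-/- mice carry in every cell a gene-trap cassette between exons of *Pear1*, which encodes a membrane receptor, so the allele is not specific to mesenchymal cells. The number of mice behind a library is not stated either, and p-values measure only the spread between these libraries.

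FGFs are secreted proteins that bind, together with heparan sulfate, to receptor tyrosine kinases and signal through RAS and ERK, which induces their own inhibitors. In lung, *Fgf10* and *Fgf7* are made by mesenchymal cells and act on the *Fgfr2* IIIb isoform of the epithelium, where *Fgf10* drives branching in the embryo and *Fgf7* (keratinocyte growth factor) epithelial growth. *Fgf2* and *Fgf18* act mainly on the receptors that mesenchymal cells carry, and the study treated lung fibroblasts with FGF as one of the factors that activate them. The comparisons asked how bleo and the loss of *Pear1* go with the levels of these ligands and receptors.

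Library totals ran from 6702948 to 10447101 counts, at which 3 counts equal 0.287 to 0.448 CPM (counts scaled by the library total), a limit that covers counting error only. *WT* vehicle replicate 2 stood apart from the other *WT* vehicle libraries: a chi-square comparison of counts, per degree of freedom, gave 21.2 and 21.8, against 1.58 between replicates 1 and 3, and 1.73 to 2.67 against the *Pear1*-/- vehicle libraries. It had a count on 29845 genes where replicates 1 and 3 had 35472 and 35884. Genes with a count also differed with treatment, 27702 to 35884 in the vehicle libraries and 21621 to 22422 in the bleo libraries. The genotypes are those of the labels. The count of *Pear1* itself, 547 ± 28.8 normalized counts in *WT* vehicle and 519.7 ± 24.0 in *Pear1*-/- vehicle (SD, n = 3), did not separate them, and it was higher in *Pear1*-/- bleo than in *WT* bleo. A gene-trap allele still transcribes exons before the cassette, and the files do not split the count by exon, so every genotype below is that of the library's label. Whether those exons account for the count was not tested. The cell type was checked on markers. All 12 mesenchymal markers exceeded 3 counts in every group, in at least 1 library, with mean *Pdgfra* at 4565 and 4165 normalized counts in the vehicle libraries of *WT* and *Pear1*-/- mice and at 1360.0 and 2392 after bleo. All 20 leukocyte, 12 epithelial, 8 endothelial, 8 smooth muscle and pericyte and 5 mesothelial markers did so as well, so the libraries also held RNA of other cells.

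On GRCm38, in the GENCODE M21 annotation, the ligand genes lay at chr3:37348346-37410108 (*Fgf2*, ENSMUSG00000037225), chr2:126034658-126091185 (*Fgf7*, ENSMUSG00000027208), chr13:118669791-118792115 (*Fgf10*, ENSMUSG00000021732) and, on the minus strand, chr11:33117430-33147400 (*Fgf18*, ENSMUSG00000057967). The receptor genes lay at chr8:25513654-25575718 (*Fgfr1*, ENSMUSG00000031565), chr5:33721674-33737068 (*Fgfr3*, ENSMUSG00000054252), chr13:55152640-55168759 (*Fgfr4*, ENSMUSG00000005320) and, on the minus strand, chr7:130162451-133123350 (*Fgfr2*, ENSMUSG00000030849). The library kit did not mark strand, and 640 exon bases of *Fgf2*, or 9.4% of its exons, are shared with *Nudt6* on the opposite strand, so their reads cannot be told apart there. *Nudt6* was at 13.8 to 21.3 normalized counts in the group means. *Fgfr3* shared 998 exon bases (13.9%) with the antisense transcript G630022F23Rik, whose count was at most 4 in any library. *Fgfr2* shared 314 exon bases (3.0%) with *Ctbp2* on the same strand, which had 143 to 320 raw counts per library.

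The promoters of *Fgf7*, *Fgf10* and *Fgfr2* are shown because these genes had the most similar patterns among the 8 over the 12 libraries, as given further on. Each sequence is the 250 bases before the start site in RefSeq (GRCm38.p6), written 5′ to 3′ along the gene's strand, with CpG dinucleotides in capitals, and none of the windows holds an exon in GENCODE. They lie at chr2:126034408-126034657 (plus strand), chr13:118714449-118714698 (plus strand) and chr7:130266809-130267058 (minus strand). The windows of *Fgf10* and *Fgfr2* lie inside the GENCODE spans of these genes given above, between annotated exons, and that of *Fgf7* lies before the span of its gene.
Fgf7: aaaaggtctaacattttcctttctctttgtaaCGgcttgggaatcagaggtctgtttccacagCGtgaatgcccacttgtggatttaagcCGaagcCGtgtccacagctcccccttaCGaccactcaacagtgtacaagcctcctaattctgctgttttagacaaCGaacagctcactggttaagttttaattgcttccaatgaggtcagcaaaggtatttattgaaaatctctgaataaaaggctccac
Fgf10: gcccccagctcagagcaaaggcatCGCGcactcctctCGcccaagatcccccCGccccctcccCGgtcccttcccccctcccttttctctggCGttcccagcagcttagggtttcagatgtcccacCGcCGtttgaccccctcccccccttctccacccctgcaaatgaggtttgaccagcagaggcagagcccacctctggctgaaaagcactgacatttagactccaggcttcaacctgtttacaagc
Fgfr2: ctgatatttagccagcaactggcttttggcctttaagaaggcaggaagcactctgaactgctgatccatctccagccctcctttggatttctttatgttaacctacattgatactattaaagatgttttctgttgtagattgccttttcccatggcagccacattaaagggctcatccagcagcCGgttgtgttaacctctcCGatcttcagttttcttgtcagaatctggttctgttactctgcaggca
The windows held 6 CpG in *Fgf7*, 8 in *Fgf10* and 2 in *Fgfr2*. The letters CG read the same on both strands. Over 32851 windows of the same length before start sites of 27025 genes the median was 6 CpG (quartiles 2 and 16), and 49.6%, 57.0% and 18.8% of those windows held fewer CpG than *Fgf7*, *Fgf10* and *Fgfr2*. The window of *Fgf18* held 37 CpG, more than 97.8% of windows.

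In *WT* vehicle the leading ligand was *Fgf7* and the leading receptors were *Fgfr1* and *Fgfr3*. Per kilobase of exon, the mean level in normalized counts was 271 for *Fgf7*, 158 for *Fgf10*, 26.3 for *Fgf18* and 6.48 for *Fgf2*. It was 256 for *Fgfr3*, 238 for *Fgfr1*, 66.0 for *Fgfr4* and 35.8 for *Fgfr2*. The order of *Fgfr3* and *Fgfr1* was within the spread of the libraries, since *Fgfr1* made up 36.1%, 50.3% and 35.8% of the 4 receptors per exon length in replicates 1 to 3 and *Fgfr3* 44.0%, 36.7% and 46.7%. The other ligands came to 13 of the 14 listed genes found in the table, and only *Fgf1*, *Fgf9*, *Fgf16* and *Fgf23* passed the filter on low counts. *Fgf1*, which binds all FGF receptors, was at 167 ± 20.6 normalized counts (SD, n = 3) in *WT* vehicle.

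**Figure D1:**
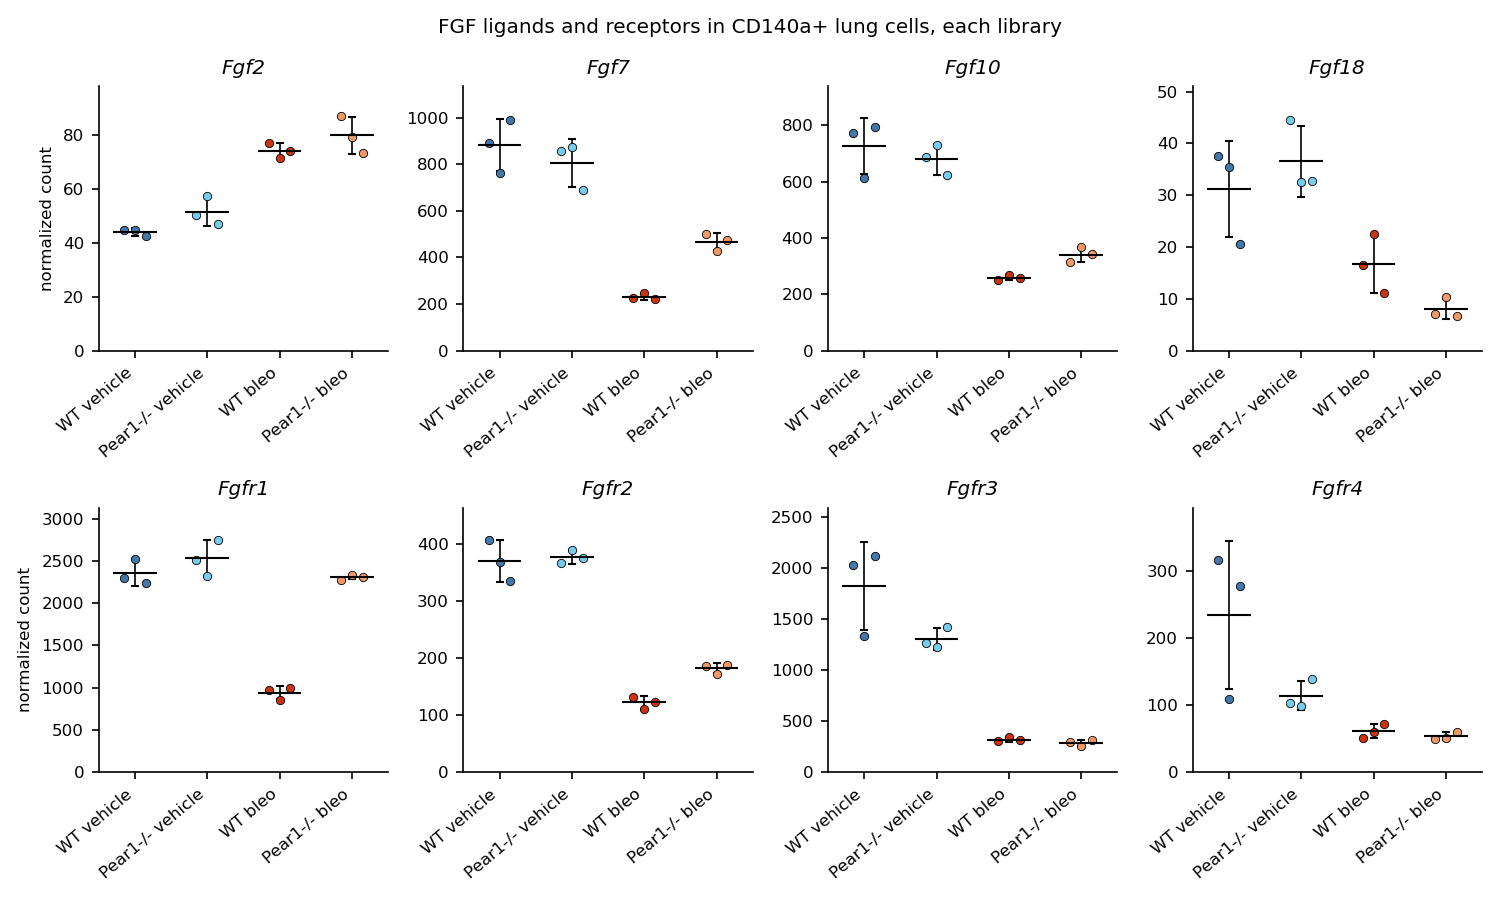
Normalized counts (linear axes from 0) of the 4 ligands and 4 receptors in each of the 12 libraries, by group. Points are libraries, horizontal lines group means and bars 1 SD. All members but *Fgf2* are lower in *WT* bleo than in *WT* vehicle in the mean, and *Fgfr1* in *Pear1*-/- bleo lies between 2279 and 2333, among the vehicle libraries.

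Bleo in *WT* mice went with lower counts of 7 of the 8 genes and higher counts of 1. A gene was called at an adjusted p under 0.05 in edgeR's quasi-likelihood test, adjusted by Benjamini-Hochberg over all 17418 genes that passed the filter on low counts, as all 8 members did. Called genes were common in this comparison, 31.4% of all genes being called higher and 36.6% lower. The bleo libraries also had a count on fewer genes than any vehicle library, as given above, and the part of this in the fold changes was not tested. The median log2 fold change of the 8 genes was -1.53, beside -0.07 over all genes tested. All 4 receptors fell. *Fgfr3* had 2034, 1334 and 2118 normalized counts in *WT* vehicle replicates 1 to 3 and 304, 343 and 313 in *WT* bleo, so it was the receptor with the largest fall, -2.50 on the log2 scale (standard error, SE, 0.15, adjusted p = 1.03e-09). *Fgfr1*, the receptor of FGF2 in fibroblasts, had 2299, 2527 and 2238 in *WT* vehicle and 973, 857 and 994 in *WT* bleo, a log2 fold change of -1.31 (SE 0.083, adjusted p = 2.15e-09). *Fgfr2* had 406, 368 and 334 in *WT* vehicle and 132, 110.1 and 124 in *WT* bleo, a log2 fold change of -1.58 (SE 0.096, adjusted p = 1.29e-09). The groups did not overlap for any of these receptors. *Fgfr4*, which binds FGF1 and FGF19 family ligands, had 315, 109 and 277 in *WT* vehicle, where replicate 2 was far below the others, and 51.4, 59.2 and 71.9 in *WT* bleo. Its log2 fold change was -1.92 (SE 0.30, adjusted p = 5e-05), and -2.21 without *WT* vehicle replicate 2.

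The ligands did not move as one. *Fgf7* had 891, 764 and 988 normalized counts in *WT* vehicle and 228, 246 and 219.7 in *WT* bleo, 3.81 times fewer in the mean (log2 fold change -1.92, SE 0.12, adjusted p = 1.19e-09). *Fgf10* had 774, 613 and 792 in *WT* vehicle and 252, 270.2 and 256 in *WT* bleo (log2 fold change -1.47, SE 0.10, adjusted p = 8.61e-09). *Fgf2* went the other way. It had 44.9, 44.7 and 42.4 in *WT* vehicle and 77.2, 71.4 and 73.9 in *WT* bleo, and rose by 0.76 on the log2 scale (SE 0.15, adjusted p = 3.55e-04). *Fgf18*, which acts on FGFR3 in cartilage and on mesenchyme in the embryonic lung, was the least counted member, with 37.6, 35.5 and 20.6 in *WT* vehicle and 16.5, 22.4 and 11.1 in *WT* bleo. The groups overlapped, and its log2 fold change of -0.89 (SE 0.32, adjusted p = 0.0235) passed the test in 6 of 12 other settings only. The settings in which it was lost included DESeq2's test (adjusted p = 0.0511) and the fits without *WT* vehicle replicate 1 (-0.74, adjusted p = 0.0847), *WT* vehicle replicate 2 (-0.71, adjusted p = 0.0505), *WT* bleo replicate 1 (-0.84, adjusted p = 0.0626) or *WT* bleo replicate 3 (-0.63, adjusted p = 0.113), and the other 7 genes were called in all 12.

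In *Pear1*-/- mice bleo went with lower counts of 6 of the 8 genes, and *Fgfr1* was not among them. Here 28.9% of all genes were called higher and 33.4% lower, and the median log2 fold change was -1.02 for the 8 genes and -0.05 for all genes tested. *Fgfr1* had 2511, 2325 and 2752 normalized counts in *Pear1*-/- vehicle and 2279, 2333 and 2308 in *Pear1*-/- bleo. These groups overlapped, and the log2 fold change was -0.13 (95% interval -0.30 to 0.04, adjusted p = 0.177), although a fit of only these 6 libraries called it (-0.14, adjusted p = 0.0367). *Fgfr3* fell again, from 1265, 1229 and 1426 to 294, 256 and 317, a log2 fold change of -2.17 (SE 0.15, adjusted p = 7.74e-09). *Fgfr2* fell from 366, 389 and 375 to 186, 172 and 188 (-1.05, adjusted p = 1.09e-07), and *Fgfr4* from 103, 99.3 and 139 to 49.7, 51.6 and 60.1 (-1.07, adjusted p = 9.19e-03). Among the ligands, *Fgf7* had 856, 875 and 689 in *Pear1*-/- vehicle and 502, 429 and 473 in *Pear1*-/- bleo (log2 fold change -0.78, adjusted p = 1.72e-05). *Fgf10* had 686, 731 and 622 against 313, 366 and 341 (-0.99, adjusted p = 7.32e-07). *Fgf18* had 44.5, 32.5 and 32.7 against 7.10, 10.3 and 6.67 (-2.16, adjusted p = 6.89e-05), which corresponds to at most 12 raw counts in a *Pear1*-/- bleo library. *Fgf2* rose by 0.63 (adjusted p = 1.25e-03), from 50.2, 57.5 and 46.9 to 87.0, 79.1 and 73.4.

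**Figure D2:**
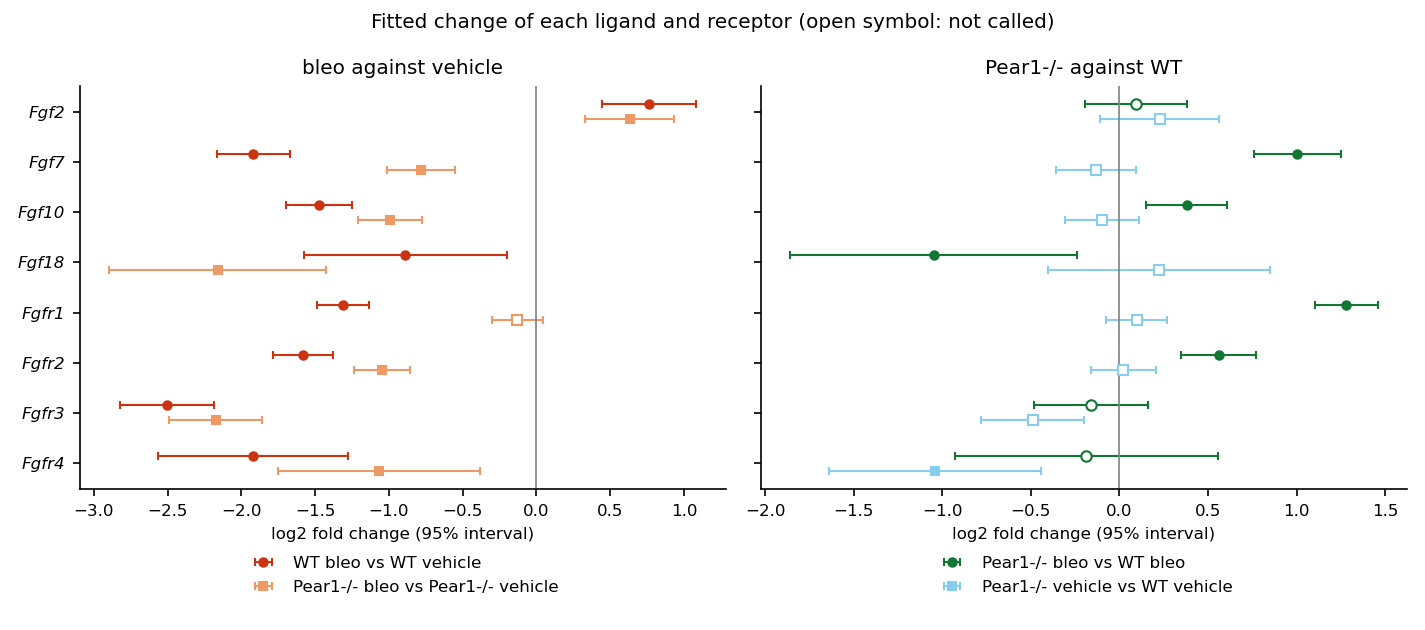
Log2 fold changes of the 8 genes fitted by edgeR over all 12 libraries, with 95% intervals, for bleo against vehicle in each genotype (left) and for *Pear1*-/- against *WT* in each treatment (right). Filled symbols passed an adjusted p of 0.05 and open ones did not. *Fgfr1* stands at -1.31 in *WT* and at -0.13 in *Pear1*-/- for bleo against vehicle.

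After bleo, *Pear1*-/- libraries had higher normalized counts of *Fgfr1*, *Fgf7*, *Fgfr2* and *Fgf10* and lower ones of *Fgf18* than *WT* libraries. Relative to *Pdgfra*, as given further on, *Fgf10* and *Fgfr2* were lower in *Pear1*-/- bleo and the libraries overlapped for *Fgf7*. Over all genes 22.1% were called higher and 23.9% lower in this comparison, and the median log2 fold change was 0.24 for the 8 genes and -0.01 for all genes. *Fgfr1* differed most, with 857 to 994 normalized counts in *WT* bleo and 2279 to 2333 in *Pear1*-/- bleo, a log2 fold change of 1.28 (SE 0.083, adjusted p = 1.05e-08). *Fgf7* was 2.02 times higher in the mean (95% interval of the log2 fold change 0.76 to 1.25, adjusted p = 4.54e-06). Its libraries lay between 219.7 and 246 in *WT* bleo and between 429 and 502 in *Pear1*-/- bleo. *Fgfr2* was higher by 0.56 (adjusted p = 2.96e-04) and *Fgf10* by 0.38 (adjusted p = 8.66e-03) on the log2 scale. In normalized counts the groups did not overlap for these 4 genes or for *Fgf18*, at 6.67 to 10.3 in *Pear1*-/- bleo and 11.1 to 22.4 in *WT* bleo. The share of all genes without overlap was not counted, in this or the other comparisons. *Fgf18* was lower by 1.05 on the log2 scale in the fit (-1.05, adjusted p = 0.0337), on 7 to 12 raw counts per *Pear1*-/- bleo library and 11 to 22 in *WT* bleo, and 5 of 12 other settings did not call it. These were DESeq2's test (adjusted p = 0.0736) and the fits without *WT* bleo replicate 1 (-1.07), *WT* bleo replicate 2 (-0.80), *Pear1*-/- bleo replicate 1 (-0.98) or *Pear1*-/- bleo replicate 3 (-0.94). The other 3 members did not pass the test. Their differences on the log2 scale were 0.09 for *Fgf2* (95% interval -0.19 to 0.38), -0.16 for *Fgfr3* (-0.48 to 0.16) and -0.19 for *Fgfr4* (-0.93 to 0.55), with adjusted p of 0.602, 0.414 and 0.693.

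The effect of bleo itself differed between the genotypes in 5 of the 8 genes. This difference, the log2 fold change with bleo in *Pear1*-/- minus that in *WT*, was called positive in 17.9% of all genes and negative in 19.1%. It was 1.18 for *Fgfr1* (SE 0.12, adjusted p = 2.08e-06) and 1.14 for *Fgf7* (adjusted p = 5.6e-05). Both were called in all 17 other settings. *Fgfr2* had 0.54 (adjusted p = 5.21e-03, called in 15 of 17 settings) and *Fgf10* had 0.48 (adjusted p = 0.0175, called in 10 of 17). *Fgf18* had -1.27 (adjusted p = 0.0493, called in 7 of 17). For *Fgf2* the difference was -0.13 (adjusted p = 0.651), for *Fgfr3* 0.33 (adjusted p = 0.221) and for *Fgfr4* 0.85 (adjusted p = 0.153). *Fgfr3* and *Fgfr4* were called without *WT* vehicle replicate 2, at 0.43 (adjusted p = 8.68e-04) and 1.13 (adjusted p = 3.01e-05).

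Between the vehicle groups only *Fgfr4* was called, at -1.04 on the log2 scale (SE 0.28, adjusted p = 0.0489). In this comparison 0.855% of all genes were called higher and 3.65% lower. The libraries overlapped, with 103, 99.3 and 139 normalized counts in *Pear1*-/- vehicle and 109 in *WT* vehicle replicate 2, and leaving out *WT* vehicle replicate 1 or 3, or *Pear1*-/- vehicle replicate 1, 2 or 3, left no member called. The log2 fold change of *Fgfr4* was then between -1.15 and -0.76, with adjusted p between 0.101 and 0.241. Without *WT* vehicle replicate 2 the call covered *Fgfr4* (-1.32), *Fgfr3* (-0.60, adjusted p = 6.36e-10) and *Fgfr1* (0.22, adjusted p = 2.9e-03), in a fit that called 55.2% of all genes, whereas the 5 fits without one of those other libraries called 0% of all genes. The vehicle comparison turned on which libraries were included for all genes, and these counts are not particular to the members. *Fgfr3* with all libraries stood at -0.49 (adjusted p = 0.052). A change above 2-fold, the study's second criterion, was met by 6 of the 8 called members with bleo in *WT* (not *Fgf2* or *Fgf18*), by 4 with bleo in *Pear1*-/- (*Fgf18*, *Fgfr2*, *Fgfr3* and *Fgfr4*), by 3 between the bleo groups (*Fgf7*, *Fgf18* and *Fgfr1*) and by *Fgfr4* between the vehicle groups. The share of all genes that met both criteria was not counted, so nothing particular to the members is read from these numbers.

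The make-up of the receptors moved towards *Fgfr1*. Per exon length, *Fgfr1* made up 40.7 ± 8.30% of the 4 receptors in *WT* vehicle and 56.4 ± 2.55% in *WT* bleo, and 50.5 ± 0.77% and 76.2 ± 1.65% in the vehicle and bleo libraries of *Pear1*-/- mice (SD, n = 3). *Fgfr3* made up 42.5 ± 5.22% and 26.5 ± 2.65% in *WT*, and 36.0 ± 0.33% and 13.2 ± 1.22% in *Pear1*-/-, in the same order. Neither share overlapped between bleo and vehicle within a genotype or between the bleo groups. An exact permutation test of 3 against 3 libraries gave 0.1 for each, two-sided, the smallest p this design allows. *Fgfr4* made up 10.7 ± 4.13% and 10.1 ± 1.44% in *WT* vehicle and bleo libraries, which overlapped, and 6.29 ± 0.67% and 4.95 ± 0.42% in those of *Pear1*-/-, which did not. Between the bleo groups its share differed by -1.04 on the log2 scale, without overlap (exact permutation p = 0.1). *Fgfr2* lay between 5.74% and 7.22% in the group means. The shares use the summed exon length of all annotated transcripts, which for *Fgfr2* spans an unusually wide gene model, and a longer exon length gives a lower value per length.

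**Figure D3:**
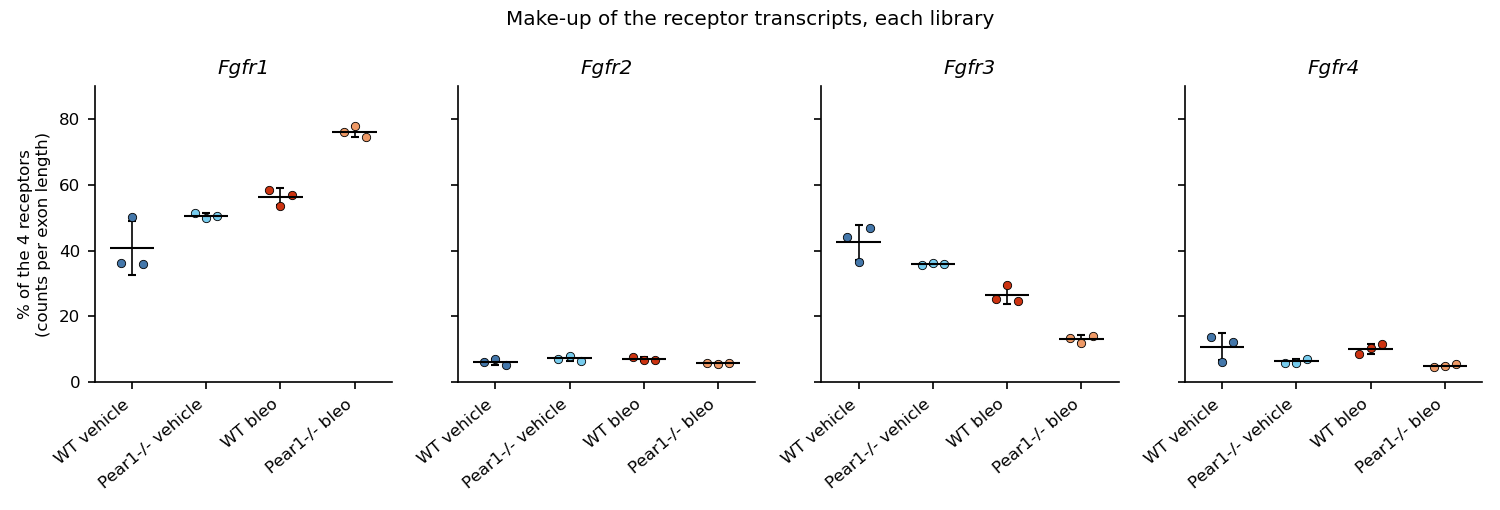
Share of each receptor in the 4 receptors, in percent of counts per exon length, for each library by group. Points are libraries, horizontal lines means and bars 1 SD. *Fgfr1* lies between 74.6% and 77.9% in *Pear1*-/- bleo, above every library of the other groups, and *Fgfr3* between 11.8% and 14.2%, below every library of the other groups.

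Among the ligands *Fgf7* kept the largest share per exon length, 58.7 ± 1.95% and 46.7 ± 0.46% in vehicle and bleo libraries of *WT* and 57.1 ± 1.34% and 60.9 ± 3.60% in those of *Pear1*-/- (SD, n = 3). *Fgf2* went from 1.42% in *WT* vehicle to 7.20% in *WT* bleo and from 1.75% in *Pear1*-/- vehicle to 4.98% in *Pear1*-/- bleo, without overlap of the libraries. *Fgf18* made up 9.12 ± 2.50% in *WT* bleo and 2.87 ± 0.76% in *Pear1*-/- bleo, also without overlap, and its share in *Pear1*-/- vehicle, 7.11 ± 1.16%, lay above every *Pear1*-/- bleo library. In *WT* vehicle it was 5.82 ± 2.07%, overlapping *WT* bleo. The *Fgf10* share lay between 31.3% and 37.0% in the group means.

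Markers of cell types moved with the groups as well. With bleo, *Pdgfra* changed by -1.74 (log2) in *WT* and by -0.80 in *Pear1*-/- mice. In *WT* bleo against *WT* vehicle, where 31.4% of all genes were called higher and 36.6% lower, 2 of 12 mesenchymal markers were called higher (*Col1a1* and *Col1a2*) and 10 lower, and 11 of 20 leukocyte markers higher and 6 lower. The calls were 2 higher and 10 lower of 12 epithelial, 0 and 6 of 8 endothelial, 3 and 3 of 8 smooth muscle and pericyte, and 0 and 4 of 5 mesothelial markers. With bleo in *Pear1*-/- mice, where the shares of all genes were 28.9% and 33.4%, 5 mesenchymal markers were called higher (*Pdgfrb*, *Col1a1*, *Col1a2*, *Col3a1* and *Mfap4*) and 7 lower, and 8 leukocyte markers higher, all of them myeloid genes such as *Lyz2* and *Csf1r*, and 9 lower. The calls for the epithelial, endothelial, smooth muscle and pericyte, and mesothelial lists were 1 and 11, 0 and 7, 4 and 3, and 0 and 2. Between *Pear1*-/- bleo and *WT* bleo, where the shares were 22.1% and 23.9%, 7 mesenchymal markers were called higher and 1 lower, and 2 leukocyte markers higher and 14 lower. The other lists, in the same order, had 1 and 7, 1 and 2, 4 and 2, and 4 and 0 called higher and lower, with *Acta2* at 2689 normalized counts in *WT* bleo and 7807 in *Pear1*-/- bleo.

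*Ptprc*, which encodes the leukocyte antigen CD45, was at 3303 and 7616 normalized counts in vehicle and bleo libraries of *WT* mice, and at 3818 and 3365 in those of *Pear1*-/- mice. The summed level of the leukocyte list was 12910 to 19780 CPM in *WT* vehicle and 14320 to 14600 CPM in *WT* bleo, against 18820 to 22240 and 14260 to 14450 in *Pear1*-/- mice. This sum joins genes that moved in opposite directions. The plasma cell gene *Jchain* fell from 103700 to 9083 normalized counts with bleo in *WT* and from 155900 to 71530 in *Pear1*-/- mice, while the myeloid gene *Lyz2* rose from 11710 to 74720 and from 13750 to 34120. *Csf1r*, a macrophage receptor, rose from 1237 to 10380 in *WT* and from 1187 to 3964 in *Pear1*-/- mice. The summed CPM of the mesenchymal list was 20710 to 21690 and 13640 to 13790 in *WT*, against 20330 to 20740 and 34310 to 35120 in *Pear1*-/-, where *Col1a1* went from 31520 to 142200 normalized counts. That of the epithelial list was 4876 to 6156 and 1711 to 1737 in *WT*, against 5785 to 6602 and 780.3 to 785.1 in *Pear1*-/-. In bulk libraries fewer cells of a type and less RNA per cell cannot be told apart, and the part of these shifts in the FGF results was not tested.

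Set against *Pdgfra* in the same library, *Fgf7* differed little between the groups. It had 19.3 ± 1.53 (SD, n = 3) counts per 100 *Pdgfra* counts in *WT* vehicle and 17.0 ± 1.31 in *WT* bleo, against 19.4 ± 2.31 and 19.6 ± 1.40 in *Pear1*-/- mice, and the libraries overlapped in all 4 comparisons. The group means of *Fgfr2* lay between 7.60 and 9.04 and those of *Fgf10* between 14.2 and 19.1. *Fgf10* was then higher in *WT* bleo than in *WT* vehicle and lower in *Pear1*-/- bleo than in *WT* bleo, without overlap, the reverse of its normalized counts. *Fgfr2* was lower in *Pear1*-/- bleo (7.60 ± 0.30) than in *Pear1*-/- vehicle (9.04 ± 0.24) and in *WT* bleo (8.97 ± 0.79), in both cases without overlap. Between the bleo groups this too was the reverse of its normalized counts. *Fgfr1* and *Fgfr3* did not follow *Pdgfra*. *Fgfr1* had 51.9 ± 7.20 counts per 100 *Pdgfra* counts in *WT* vehicle and 69.2 ± 4.47 in *WT* bleo, against 60.8 ± 5.72 and 96.5 ± 1.82 in *Pear1*-/- mice, so it was above vehicle after bleo in both genotypes and highest in *Pear1*-/- bleo. In *WT* this was the reverse of its normalized counts, which fell with bleo. *Fgfr3* had 39.8 ± 7.01 and 23.5 ± 1.80 in *WT* and 31.4 ± 2.81 and 12.1 ± 1.21 in *Pear1*-/- mice, with no overlap between any of these groups other than the vehicle groups. *Fgf2* went from 0.967 to 5.45 in *WT* and from 1.24 to 3.34 in *Pear1*-/- mice, also without overlap. *Fgfr4* had 4.46 ± 0.67 in *WT* bleo and 2.25 ± 0.22 in *Pear1*-/- bleo, without overlap, and overlapped between bleo and vehicle in both genotypes (5.02 ± 2.13 and 2.73 ± 0.55 in the vehicle groups). *Fgf18* had 0.689 ± 0.22 in *WT* vehicle and 1.23 ± 0.44 in *WT* bleo, which overlapped, the mean being higher after bleo where that of its normalized counts was lower. It had 0.878 ± 0.17 and 0.336 ± 0.086 in *Pear1*-/- mice, and its *Pear1*-/- bleo libraries lay below all of the others. The permutation p for a pair of groups without overlap is 0.1 here too.

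**Figure D4:**
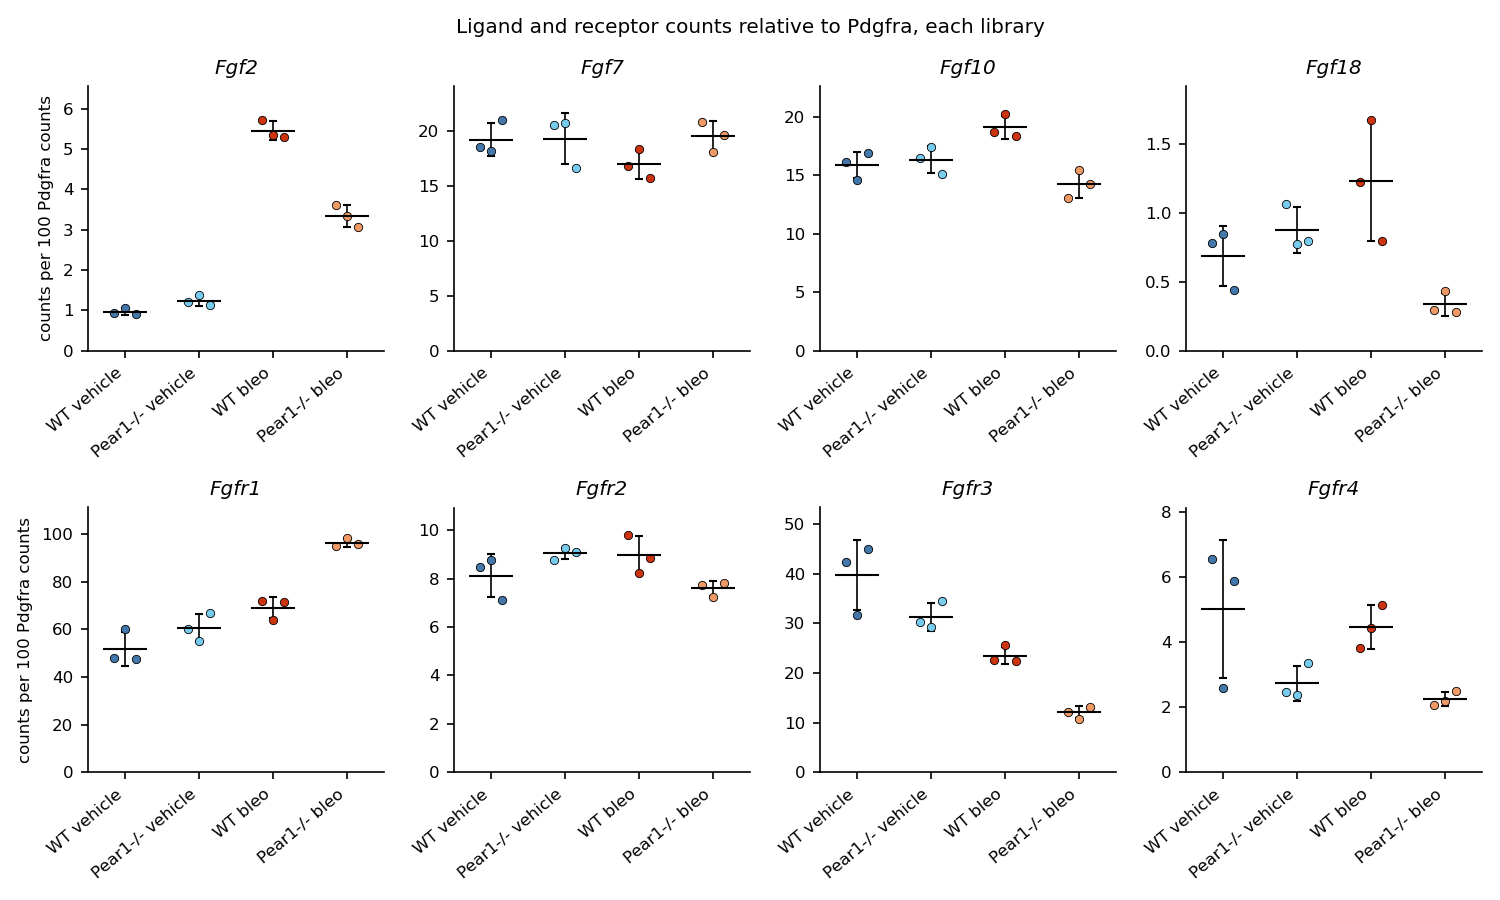
Counts of each ligand and receptor per 100 counts of *Pdgfra* in the same library (linear axes from 0), by group. Points are libraries, horizontal lines means and bars 1 SD. *Fgf7* lies between 15.8 and 21.0 in all 12 libraries, while *Fgfr1* is at 94.9 to 98.4 in *Pear1*-/- bleo and *Fgfr3* at 10.8 to 13.2.

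The genes whose patterns were nearest to each member were found as those with the smallest root mean square difference in log2 CPM over the 12 libraries, each gene centred on its own mean, among 10448 genes whose mean log2 CPM reached 3. Nearest to *Fgf7* were *Tmem47* (0.082) and *Pdgfra* (0.13), beside a median of 0.86 over all candidates. Nearest to *Fgf10* were *Nfia* (0.085), a transcription factor, and *Plscr4* (0.091). *Fgfr1* was nearest to *Ltbp1* (0.092), which binds latent TGFβ in the matrix, and *Angptl2* (0.099). *Fgfr2* was nearest to *Gm42899* (0.093) and *Aldh6a1* (0.10), and *Fgfr3* to *Foxl1* (0.16), a forkhead transcription factor of mesenchyme, and *Selenbp1* (0.17). *Fgfr4* had *Best3* (0.26) and *Sfi1* (0.29), and *Fgf2* had *Mrpl19* (0.087) and *Mfap3* (0.093), beside medians of 0.96 and 0.41. The genes nearest to *Fgf18*, *Trbc1* (0.26) and *Cd3d* (0.28), encode parts of the T cell receptor complex. Within the 8 genes the nearest pairs were *Fgf10* with *Fgfr2* (0.18), *Fgf7* with *Fgfr2* (0.23) and *Fgf7* with *Fgf10* (0.25). These distances rest on 12 libraries that share the shifts in cell markers given above, and they describe likeness of pattern only.

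The other genes of the pathway changed in both directions. Of 64 listed genes 51 were tested, and 17 were called higher and 23 lower in *WT* bleo against *WT* vehicle, 16 and 15 in *Pear1*-/- bleo against *Pear1*-/- vehicle, and 16 and 14 in *Pear1*-/- bleo against *WT* bleo. The shares of all genes called higher and lower were 31.4% and 36.6%, 28.9% and 33.4%, and 22.1% and 23.9% in these comparisons, and nothing particular to the pathway is read from the counts. The median log2 fold changes of the pathway genes were -0.23, -0.01 and 0.15. Between the vehicle groups none was called higher and 2 lower, beside 0.855% and 3.65% of all genes.

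The feedback inhibitors, which ERK signalling induces and which damp it, were mostly lower with bleo in *WT*, and several were higher in *Pear1*-/- bleo than in *WT* bleo. Of 11 tested, 7 fell and 2 rose in *WT* bleo, and 5 were higher and 1 lower in *Pear1*-/- bleo against *WT* bleo. Of all genes 31.4% were called higher and 36.6% lower in the first comparison, and 22.1% and 23.9% in the second. With bleo in *Pear1*-/- mice 2 of the inhibitors were called higher and 4 lower, beside 28.9% and 33.4% of all genes. *Spry1*, a Sprouty inhibitor of receptor tyrosine kinase signalling, went from 740.1 ± 30.6 normalized counts in *WT* vehicle to 198 ± 8.89 in *WT* bleo (log2 fold change -1.89, adjusted p = 5.49e-12) and was at 229.6 ± 6.77 in *Pear1*-/- bleo (0.20 against *WT* bleo, adjusted p = 0.0364). It also fell with bleo in *Pear1*-/- mice, from 789.8 ± 21.4 (-1.78, adjusted p = 1.3e-11), and the difference of the bleo effects was 0.11 (adjusted p = 0.389). *Spry2* went from 304 ± 22.6 to 121 ± 5.51 (-1.32, adjusted p = 3.53e-07) and was at 214 ± 34.4 in *Pear1*-/- bleo (0.82, adjusted p = 1.13e-04). *Spry4* fell by 0.90 in *WT* bleo (adjusted p = 3.9e-05) and was higher by 0.61 in *Pear1*-/- bleo (adjusted p = 2.13e-03). *Dusp6*, the phosphatase that inactivates ERK, rose instead, from 988 ± 134 in *WT* vehicle to 1213 ± 36.3 in *WT* bleo (0.31, adjusted p = 0.0103), and was highest in *Pear1*-/- bleo at 1663 ± 24.9 (0.44 against *WT* bleo, adjusted p = 1.38e-03). *Dusp4* fell by 0.58 in *WT* bleo and was higher by 0.67 in *Pear1*-/- bleo (adjusted p = 1.38e-04). *Spred1* rose by 1.83 in *WT* bleo and was lower in *Pear1*-/- bleo than in *WT* bleo (-0.59, adjusted p = 7.41e-05).

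The ETS transcription factors *Etv1*, *Etv4* and *Etv5*, which FGF signalling induces, were all called higher in *Pear1*-/- bleo than in *WT* bleo, where 22.1% of all genes were. *Etv5* was at 212 ± 39.6 normalized counts in *WT* vehicle and 315 ± 6.96 in *WT* bleo, against 238 ± 9.42 and 390.4 ± 39.3 in *Pear1*-/- mice (0.58 in *WT* bleo against *WT* vehicle, adjusted p = 3.82e-04, and 0.29 in *Pear1*-/- bleo against *WT* bleo, adjusted p = 0.0345). *Etv1* was higher by 0.52 in *Pear1*-/- bleo (adjusted p = 3.51e-03), and its difference in *WT* bleo was -0.29 (adjusted p = 0.057). *Etv4* was nearly silent in vehicle. It had 14, 0 and 7 raw counts in the *WT* vehicle libraries, 0 in all 3 *Pear1*-/- vehicle libraries, 24, 36 and 28 in *WT* bleo and 114, 113 and 113 in *Pear1*-/- bleo. The fitted log2 fold change was 1.80 for *Pear1*-/- bleo against *WT* bleo (SE 0.37, adjusted p = 1.47e-03), and against *Pear1*-/- vehicle it was at least 34.4-fold higher in *Pear1*-/- bleo, taking 3 counts per library as the limit of a count of 0.

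**Figure D5:**
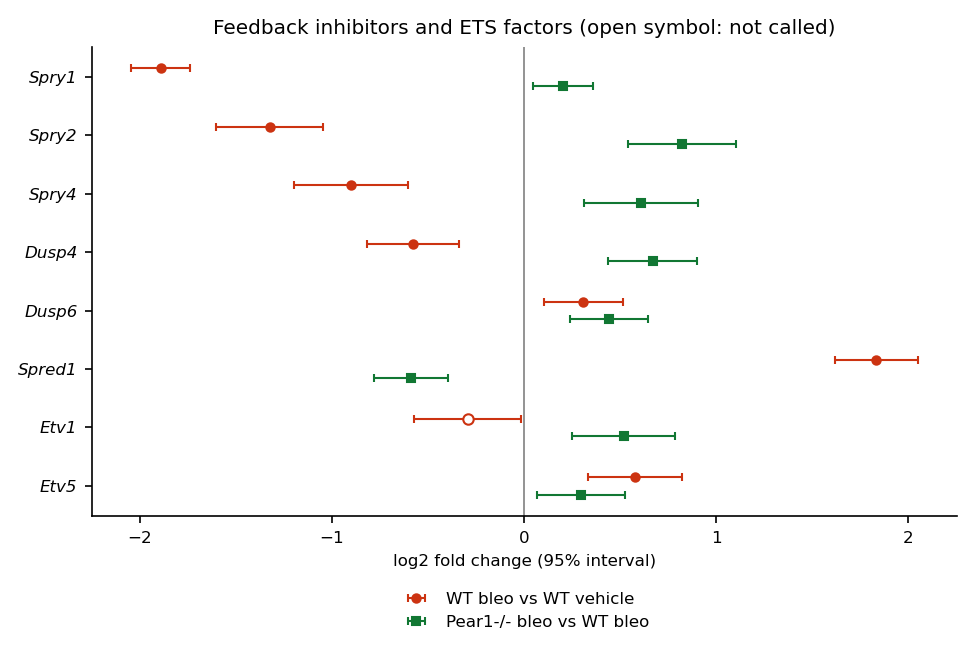
Log2 fold changes with 95% intervals for *WT* bleo against *WT* vehicle (circles) and *Pear1*-/- bleo against *WT* bleo (squares). Shown are the feedback inhibitors called in the second comparison, with *Etv1* and *Etv5*. *Etv4* and the inhibitors not called there (*Spry3*, *Spred2*, *Spred3*, *Dusp5* and *Il17rd*) are not shown. Filled symbols passed an adjusted p of 0.05. *Spry1*, *Spry2*, *Spry4* and *Dusp4* lie below 0 in the first comparison and above 0 in the second, while *Spred1* does the opposite and *Dusp6* and *Etv5* lie above 0 in both.

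Of the genes that present the ligands, 12 act in making or trimming heparan sulfate, and 7 were called higher and 5 lower in *WT* bleo, beside 31.4% and 36.6% of all genes. The 2 sulfatases that trim it outside the cell went apart: *Sulf1* fell by 0.70 (adjusted p = 4e-05) and *Sulf2* rose by 0.91 (adjusted p = 2.22e-06). In *Pear1*-/- bleo against *WT* bleo *Sulf1* was higher by 0.87 (adjusted p = 1.03e-05) and *Sulf2* lower (-0.70, adjusted p = 5.32e-05). The sulfotransferases *Hs3st1* and *Ndst2* had -1.66 and 1.63 in *WT* bleo, and both were lower in *Pear1*-/- bleo (-0.61 and -0.44). *Hs2st1* rose by 1.25 in *WT* bleo and was lower in *Pear1*-/- bleo (-0.47, adjusted p = 0.0141). *Glce*, the epimerase of heparan sulfate, was higher by 0.68 in *Pear1*-/- bleo.

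Of 8 listed co-receptors, decoy receptors and binding proteins 5 were tested. *Flrt2* and *Flrt3*, membrane proteins that can bind FGF receptors, moved apart. *Flrt2* went from 477 ± 38.7 to 178 ± 21.5 normalized counts in *WT* bleo (log2 fold change -1.41, adjusted p = 1.3e-08) and stood at 458 ± 37.1 in *Pear1*-/- bleo, near its 451 ± 29.8 in *Pear1*-/- vehicle. *Flrt3* rose from 237 ± 37.4 to 1135 ± 50.3 (2.28, adjusted p = 8.63e-11) and from 206 ± 26.8 to 773 ± 32.4 in *Pear1*-/- mice (1.91, adjusted p = 1.06e-09), and was lower in *Pear1*-/- bleo than in *WT* bleo (-0.57, adjusted p = 2.36e-04). Of the 4 other ligands tested *Fgf1* and *Fgf9* were called lower in *WT* bleo, beside 36.6% of all genes, *Fgf1* by 1.08 on the log2 scale (-1.08, adjusted p = 1.53e-06). With bleo in *Pear1*-/- mice *Fgf1*, *Fgf9* and *Fgf16* were called lower, beside 33.4% of all genes. None of the 4 was called in *Pear1*-/- bleo against *WT* bleo, beside 22.1% of all genes called higher and 23.9% lower. There *Fgf1* differed by -0.11 (95% interval -0.39 to 0.17). Of the 4 intracellular FGF homologous factors, which are not secreted, *Fgf13* was called higher and *Fgf11*, *Fgf12* and *Fgf14* lower in *WT* bleo, beside 31.4% and 36.6% of all genes. With bleo in *Pear1*-/- mice *Fgf11* alone of the 4 was called, and it was lower, beside 33.4% of all genes.

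Of 12 docking proteins and adaptors, which couple the receptors to RAS, 4 were called higher and 4 lower in *WT* bleo, close to the 31.4% and 36.6% of all genes. *Grb2* rose from 235 ± 26.7 to 1146 ± 18.6 normalized counts (2.29, adjusted p = 2.44e-12), *Cbl* by 1.02 and *Gab2* by 0.53, and *Gab1* fell by 0.54 (adjusted p = 7.58e-05). In *Pear1*-/- bleo against *WT* bleo *Grb2* (-1.59), *Gab2* (-0.96) and *Sos2* (-0.83) were lower. *Frs2*, the docking protein specific to FGF receptors and a few others, was among the 4 called lower in *WT* bleo and among the 4 called higher in *Pear1*-/- bleo against *WT* bleo, where 5 of the 12 were called lower and the shares of all genes were 22.1% and 23.9%.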

How the data were processed

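Full-length cDNA of sorted CD140a+ lung cells was made with SMART-Seq v4 and sequenced on HiSeq X10, and reads were aligned with HISAT2 to GRCm38. The program that counted the reads is not given in the sources used here. The authors deposited raw read counts per gene, and a second table, a signal, which the counts themselves show to be each count divided by 1 size factor per library (0.825 to 1.16), called normalized counts here. No blank or total rows were found among the 40760 genes.

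The 12 libraries were fitted together in edgeR 4.0.16 (R 4.3.3) by quasi-likelihood, with TMM, filterByExpr and 1 mean per group, two-sided, with Benjamini-Hochberg adjustment. The study's criteria were a fold change above 2 and FDR under 0.05 in limma, and here the fold was not required. Alternatives were DESeq2 1.42.0, limma 3.58.1 on log2(normalized count + 1), other size factors, no filter, only the libraries compared, a replicate block and leaving out each library.

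The 8 members, the pathway and marker lists and the tests were chosen with earlier results of these data known. All 8 members were reported, with *Spry1*, *Spry2*, *Spry4*, *Dusp6*, *Etv4* and *Etv5* and up to 3 called pathway genes per list and comparison by size of change with mean log2 CPM no lower than 3. *Frs2*, and genes named from lists with few calls, were named after their values were seen. The shares per exon length and the ratios to *Pdgfra* were also chosen after seeing the data. Positions come from GENCODE M21 and promoters from RefSeq.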

Additional observations from a re-analysis of the deposited data

Results flagged for a closer look

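For 5 of the 8 genes the effect of bleo differed between *Pear1*-/- and *WT* by the test of the difference itself, the genotype by bleo term in edgeR's quasi-likelihood fit with Benjamini-Hochberg adjustment over 17418 genes. By the same test 17.9% of all genes were called positive and 19.1% negative. The log2 fold change with bleo in *Pear1*-/- minus that in *WT* was 1.18 for *Fgfr1* (adjusted p = 2.08e-06) and 1.14 for *Fgf7* (adjusted p = 5.6e-05). It was 0.54 for *Fgfr2* (adjusted p = 5.21e-03), 0.48 for *Fgf10* (adjusted p = 0.0175) and -1.27 for *Fgf18* (adjusted p = 0.0493). Of 17 other settings, all called *Fgfr1* and *Fgf7*, 15 called *Fgfr2*, 10 *Fgf10* and 7 *Fgf18* (adjusted p up to 0.134). The same difference for *Pdgfra* was 0.94 and for *Ptprc* -1.40, and their part in these values was not tested.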

How the results depend on the processing

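Of 520 values of single members under the alternatives, 470 kept their direction and side of the threshold, 37 lost the call, 9 gained one, and 4 small uncalled values changed sign. No called value reversed. The number of members called with bleo in *WT* was 7 or 8 and in *Pear1*-/- 7 or 8 under every alternative, and in *Pear1*-/- bleo against *WT* bleo 4 or 5. Leaving out 1 library at a time gave 7 to 8, 7 to 7 and 4 to 5. The share of all genes called under the alternatives ran from 47.7% to 76.4%, from 33.3% to 69.7% and from 19.2% to 66%, in the same order. Between the vehicle groups, 1 member was called with all libraries, 2 with DESeq2 (*Fgfr3* and *Fgfr4*), 2 without a filter on low counts, 2 with the replicate block, 0 with limma and 0 in edgeR on only the vehicle libraries (2 members with an unadjusted p under 0.05 in both), and 0 to 3 when 1 library was left out (2 with an unadjusted p under 0.05 in each fit that called 0), while the share of all genes called in those fits went from 0% to 55.2%. For the difference of the bleo effects, 5 were called, and 3 to 7 when 1 library was left out, 7 without *WT* vehicle replicate 2, where 46.4% of all genes were called against 37% with all libraries. Same-numbered libraries of different groups did not deviate together (correlations -0.191 to 0.097 over 18 pairs), so the replicate block, which called 8, 7, 5, 2 and 5 members, marks only a shared number. The causes of these shifts were not tested. *Fgf18* had 7 to 47 raw counts in any library, and depth was not varied.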
